A study of Homo sapiens with 24 samples.

Results

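The comparison described here set the arrays labelled VCaP with 10 µM I-BET762 against those labelled VCaP with vehicle. It used 4 of the 24 arrays of the series, chosen by cell line, dose and time in the sample labels, and 26241 of the 54613 probe sets tested, those with a mean signal of 100 or more in either group. These probe sets gave 11685 of 19775 named genes. The series asked which genes respond to inhibition of BET proteins in prostate cancer cell lines. RNA of 4 lines was profiled on Affymetrix U133 Plus 2.0 arrays, whose probe sets lie mostly near the ends of transcripts. VCaP is an established line from a metastasis of prostate cancer that carries a TMPRSS2-ERG gene fusion. One group had been exposed for 24 hours to 10 µM I-BET762 (GSK525762A in the labels), the other for 24 hours to DMSO, the vehicle, and each held 2 independent biological replicates. A further 2 arrays with 0.5 µM are used below for the effect of dose, and 4 arrays labelled LNCaP, with 10 µM and vehicle, for the comparison between lines. All lines were grown in RPMI-1640 with fetal bovine serum, and each is a culture model without stroma.

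BET proteins carry bromodomains that bind acetylated lysines on histones, and they recruit the elongation kinase P-TEFb, made of CDK9 and a cyclin T, to promoters and enhancers. P-TEFb releases paused RNA polymerase and is held inactive in a small nuclear complex by HEXIM1. I-BET762 occupies the acetyl-lysine pocket, and in prostate cells BET proteins are known for work at MYC and at genes driven by androgen.

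The label was checked first, and the arrays went against it. ERG, the ETS factor that the fusion drives, gave signals of 5.85 and 28.3 with 10 µM and 16.2 and 20.1 with vehicle, and none of its 4 probe sets reached a mean of 100. On the arrays labelled LNCaP the same probe set read 2867 and 2879 with 10 µM and 6884 and 7084 with vehicle. ETV1, the ETS factor known to be active in LNCaP, read 192 and 214 with 10 µM and 408 and 343 with vehicle on the arrays labelled VCaP, and 14.5 and 90.3 with 10 µM and 32.5 and 53.4 with vehicle on those labelled LNCaP. The arrays are therefore called labelled VCaP and labelled LNCaP throughout, and no line is asserted. Of 7 genes written down as VCaP-defining, 3 had a mean of 100 or more in either group, and ERG, CRISP3, TDRD1 and PLA1A did not, whereas all 5 LNCaP-defining genes did. All 10 luminal prostate markers on the array were above the floor. Of markers of other cells, 1 of 5 basal, 1 of 6 neuroendocrine, 3 of 7 fibroblast, 0 of 5 leukocyte and 3 of 6 endothelial genes were, on any of their probe sets. Of these only VWF, an endothelial gene, passed between 10 µM and vehicle, on 1 of its 2 probe sets (means of 16.4 with 10 µM and 211 with vehicle, log2 change -3.68, adjusted p = 0.00436), while the other was under the floor.

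**Figure D1:**
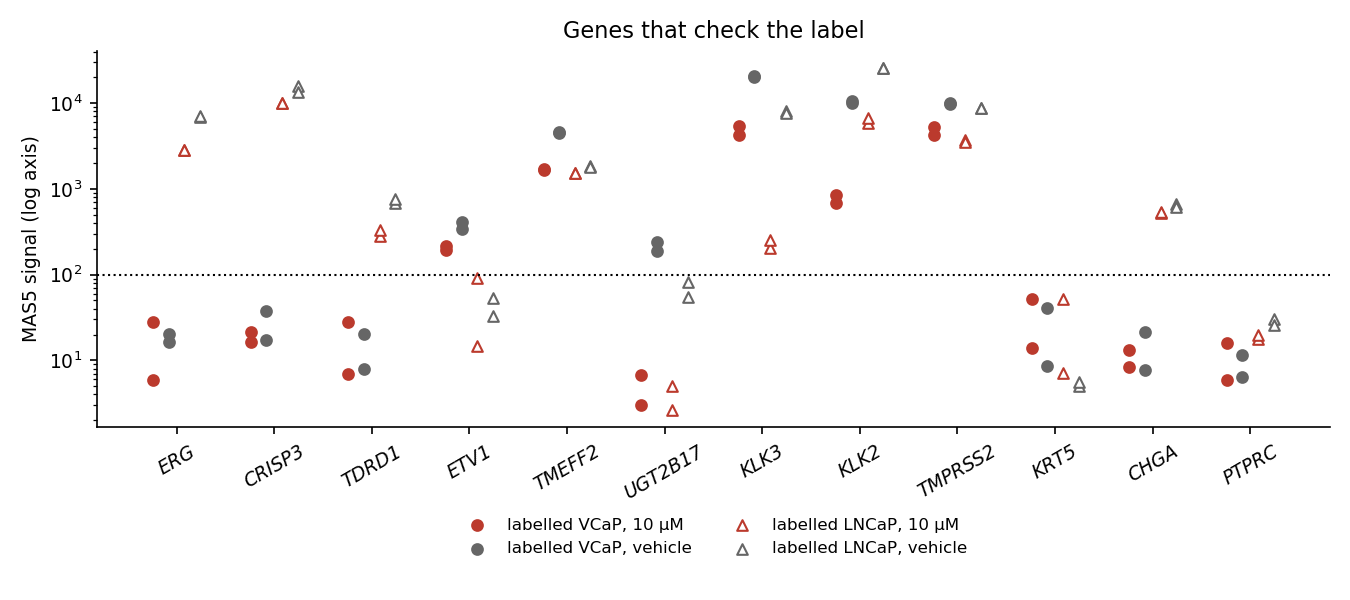
MAS5 signal (log axis) of 12 genes on each array with 10 µM I-BET762 (red) and vehicle (grey), on the arrays labelled VCaP (filled circles) and labelled LNCaP (open triangles). ERG read 5.85 and 28.3 with 10 µM and 16.2 and 20.1 with vehicle on the arrays labelled VCaP, under the dotted floor of 100, and over 1000 on all arrays labelled LNCaP.

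Values are MAS5 signals, an intensity, and the authors brought every array to a target intensity of 500. A probe set was called at a limma adjusted p under 0.1, a fold over 2 and a group mean of at least 100 in either group. Standard errors and p-values pool the spread between replicates over all 12 groups of the series, not over these arrays alone. Calls numbered 1522 higher (2.79% of those tested) and 1798 lower (3.29%). Among probe sets above the floor these were 5.8% and 6.85%. Of the 1522, 517 had a vehicle mean under 100, and of the 1798, 538 had a 10 µM mean under 100, so that their folds are lower bounds against 100. The falls were larger than the rises. A fitted change of more than 8-fold was met by 144 probe sets that fell and 41 that rose, and with groups under the floor raised to 100 by 39 and 3. At the level of genes, 581 were called higher (4.97% of those above the floor) and 985 lower (8.43%). The 2 arrays with 10 µM lay apart from the 2 with vehicle in all of these, and in 80.1% of all genes above the floor, so that groups without overlap are usual here. The median change over all genes above the floor was 0.02 on the log2 scale. Centring each array on its median lowered every change by 0.13 and moved the split to 1094 higher and 2305 lower. The replicate arrays correlated at 0.946 in each group.

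**Figure D2:**
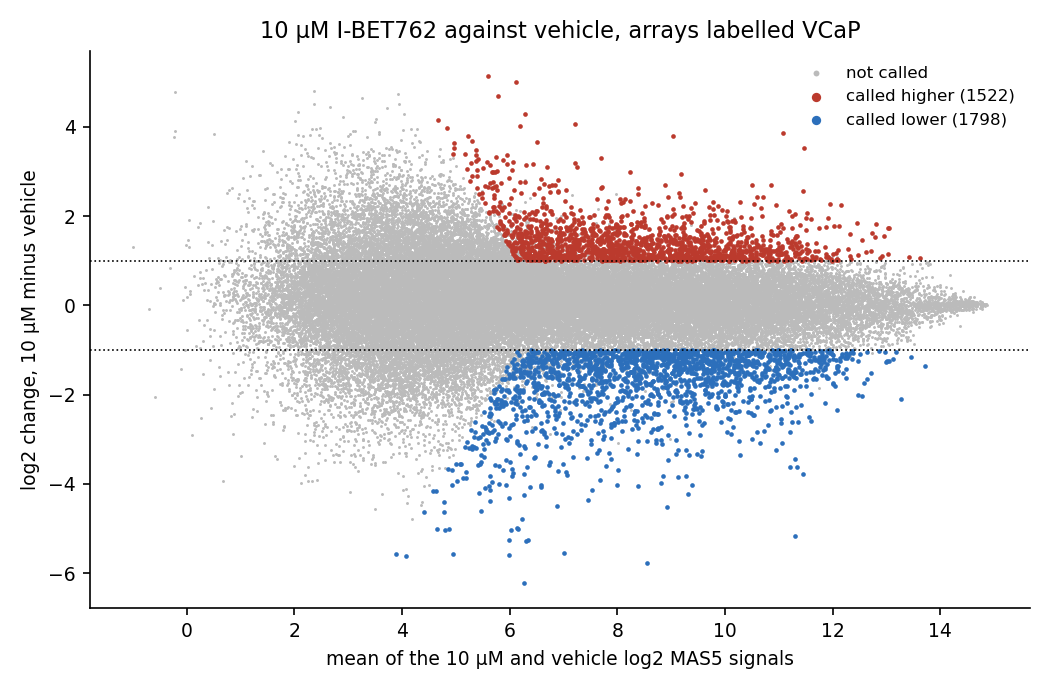
Each point is 1 of the 54613 probe sets on the arrays labelled VCaP, with the mean log2 MAS5 signal of the 10 µM and vehicle groups on the x axis and the log2 change, 10 µM minus vehicle, on the y axis. Red points are the 1522 called higher, blue points the 1798 called lower, and the dotted lines mark a fold of 2.

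Among genes of the BET and P-TEFb machinery, the clearest rises were of the P-TEFb inhibitor and of a BET protein. The list of 17 such genes above the floor held 7 that rose and 1 that fell, against 20.2% and 21.9% of all genes above the floor that passed the test in each direction, here without a minimum fold. The same shares are the comparison for every list count against vehicle below. HEXIM1, the inhibitor of P-TEFb, read 10189.8 and 9686 with 10 µM and 2045 and 2113 with vehicle. It rose 4.78-fold (log2 change 2.26 ± 0.12, SE, limma adjusted p = 4.26e-08), and a second of its 3 probe sets rose by 2.58. BRD2, a BET protein itself, read 8029 and 8418 with 10 µM and 2348 and 2424 with vehicle and rose 3.45-fold (adjusted p = 1.07e-07). The groups did not overlap for either gene, nor for 80.1% of all genes above the floor. CDK9, the kinase, rose by 0.69 on the log2 scale, and AFF4 and AFF1, scaffolds of the super elongation complex, by 0.74 and 0.89. The BET protein BRD3 read 2596 and 2477 with 10 µM and 3114 and 3037 with vehicle, a log2 difference of -0.28 ± 0.17 that did not pass (adjusted p = 0.329). The member that fell was CDK7 (-0.37), the kinase of TFIIH, and it did not pass without the second 10 µM or the second vehicle array.

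In the network of MYC and its partner MAX, 6 of 10 genes above the floor fell and 1 rose. MYC fell by 2.61 on the log2 scale. MXD1, which competes with MYC for MAX and represses, read 325 and 276 with 10 µM and 110.4 and 114 with vehicle, and rose 2.67-fold (adjusted p = 0.000157). MNT, another repressor partner of MAX, fell by 0.70 on the probe set used. Its other probe set rose by 0.83, with means of 109.7 with 10 µM and 61.9 with vehicle (limma adjusted p = 0.0433). The change of MXD3, -1.36, passed at an adjusted p of 0.0207 but missed the threshold without the first 10 µM array (adjusted p = 0.2) or the first vehicle array (0.102), within a range of 0.00971 to 0.236 over its alternatives. Without the first vehicle array the count of MYC and MAX genes that fell was 3.

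Genes that license and copy DNA were among those with the largest falls. The 15 genes with the largest falls, ranked with groups under the floor raised to 100, included MCM5, MCM10, CDC6 and CDC45, which load or form the replicative helicase, and RRM2, the small subunit of ribonucleotide reductase. Only called genes whose groups did not overlap were ranked. UHRF1, which reads hemimethylated DNA behind the fork and brings in DNMT1, read 58.9 and 44.1 with 10 µM and 2892 and 2709 with vehicle. Its fall was at least 28.0-fold, the largest of all genes by this ranking (fitted log2 change -5.78 ± 0.18, SE, limma adjusted p = 9.11e-10). DTL, the substrate receptor of the ubiquitin ligase that removes CDT1 in S phase, read 78.6 and 131 with 10 µM and 2311 and 2335 with vehicle, 22.9-fold lower (adjusted p = 5.17e-09). ZNF367, a zinc finger protein, read 158 and 138 with 10 µM and 2722 and 2810.5 with vehicle, 18.8-fold lower (adjusted p = 1.85e-06). For all 3 the highest signal with 10 µM lay under the lowest with vehicle, which the ranking required. MCM5 read 174 and 158 with 10 µM and 2328 and 2371 with vehicle, a 14.2-fold fall. RRM2 read 708 and 633 with 10 µM and 8435 and 8130.0 with vehicle, a 12.4-fold fall. In both, the 10 µM signals lay under the vehicle signals, again as the ranking required. Folds of MCM10, CDC6 and CDC45 were 10.0, 9.66 and 9.44.

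**Figure D3:**
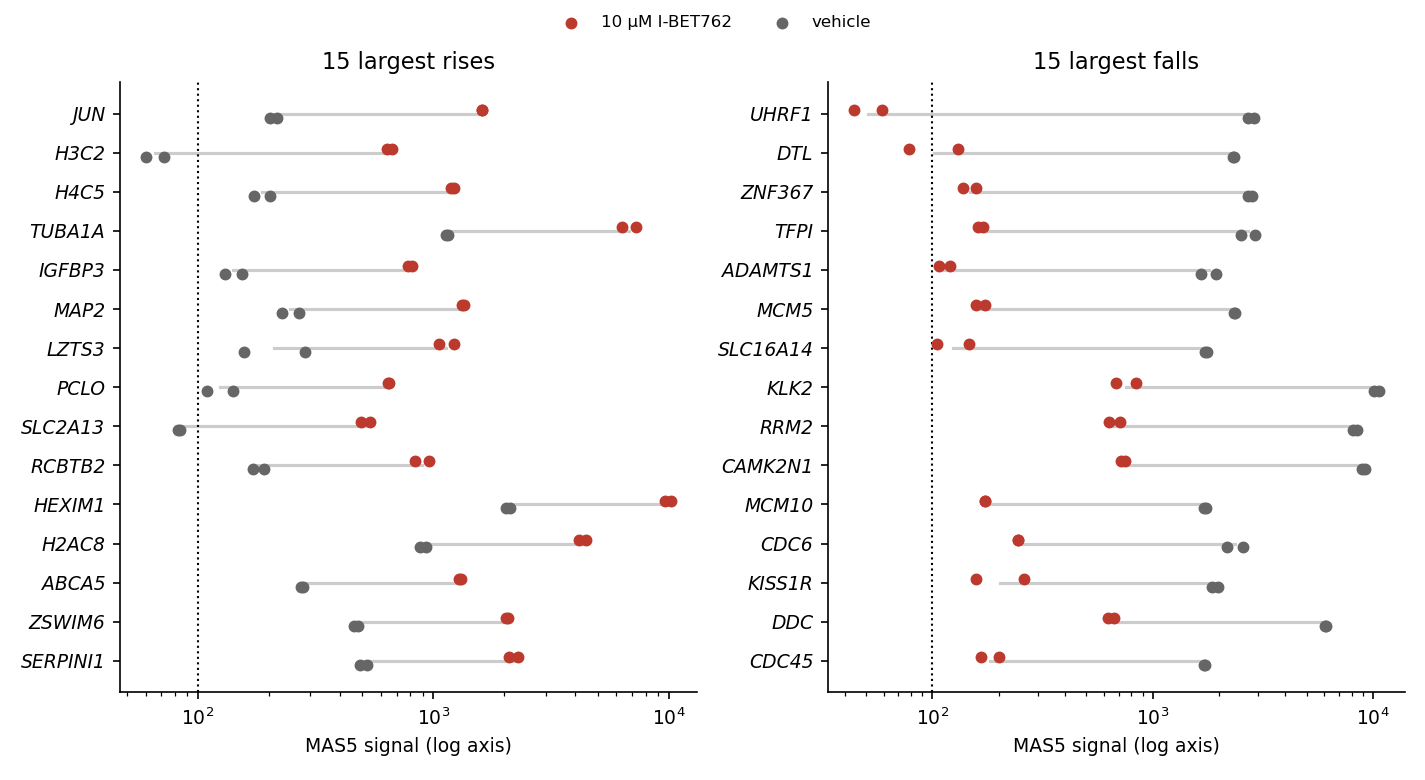
MAS5 signal (log axis) of the 15 genes with the largest rises (left) and the 15 with the largest falls (right) on each array with 10 µM I-BET762 (red, upper point) and vehicle (grey, lower point), arrays labelled VCaP. Grey lines join the geometric means and the dotted line is the floor of 100. Only called genes without overlap of the groups were ranked, and UHRF1 reads 58.9 and 44.1 with 10 µM against 2892 and 2709 with vehicle.

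The list of DNA replication genes held 54 above the floor, of which 48 fell, 1 rose and 5 did not pass, with a median log2 change of -1.50. All 37 with a fold over 2 fell. ORC1, of the complex that marks replication origins, read 10.8 and 14.8 with 10 µM and 410.2 and 400.1 with vehicle, a fall of at least 4.05-fold. The only member that rose was ORC4 (0.94), another subunit of the same complex, while ORC5 had a difference of -0.24 (adjusted p = 0.189). The sliding clamp PCNA fell by 1.24.

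The promoters of UHRF1, DTL and ZNF367 are shown because these genes fell most, and that of ESPL1, the separase that cuts cohesin at anaphase, as an example from the mitosis genes described below. Each is the 150 bases before the RefSeq start on GRCh38.p14, read along the gene. Capitals mark exact matches, on either strand, to the E2F core (TTCCCGC or TTGGCGC), to the CCAAT box (CCAAT) or to the cell cycle homology region, CHR (TTTGAA).
UHRF1, chr19:4909351-4909500, plus strand: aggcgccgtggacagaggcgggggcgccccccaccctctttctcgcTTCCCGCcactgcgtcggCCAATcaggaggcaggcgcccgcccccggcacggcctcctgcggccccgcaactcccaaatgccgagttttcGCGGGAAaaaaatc
DTL, chr1:212035598-212035747, plus strand: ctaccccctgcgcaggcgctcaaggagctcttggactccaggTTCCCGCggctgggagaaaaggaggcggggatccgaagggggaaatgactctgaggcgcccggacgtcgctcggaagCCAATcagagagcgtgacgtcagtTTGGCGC
ZNF367, chr9:96418371-96418520, minus strand: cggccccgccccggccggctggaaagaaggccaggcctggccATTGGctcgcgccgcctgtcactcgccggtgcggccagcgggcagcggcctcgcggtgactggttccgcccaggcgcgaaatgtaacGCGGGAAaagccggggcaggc
ESPL1, chr12:53268149-53268298, plus strand: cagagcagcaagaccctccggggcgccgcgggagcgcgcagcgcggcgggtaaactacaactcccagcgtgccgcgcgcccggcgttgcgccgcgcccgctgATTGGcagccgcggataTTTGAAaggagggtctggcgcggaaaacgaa
The E2F matches lie 14 and 104 bases before the start of UHRF1, 7 and 108 before that of DTL and 21 before that of ZNF367. In ESPL1 the CHR match lies 31 bases and the CCAAT match 48 bases before the start. The same 150 bases of NCAPH and SPC25, mitosis genes also named below, held no CHR match. Over 250 bases before the start, an E2F core was present in 14 of 32 replication genes called lower that had a promoter in the table (43.8%), in 18.3% of all genes called lower, in 10.0% of genes called higher and in 12.9% of genes above the floor. Of 35 mitosis genes called lower with a promoter, 9 held an E2F core (25.7%). A CHR was present in 0 of those 32 replication genes, in 19 of 35 mitosis genes called lower (54.3%), in 13.8% of all genes called lower, in 8.16% of genes called higher and in 8.37% of genes above the floor. CCAAT was present in 56.2% of the replication and 71.4% of the mitosis genes, and in 35.9% of genes above the floor. The E-box CACGTG, the letters that MYC and MAX bind, was present in 8.10% of genes called lower, 10.2% of genes called higher and 9.25% of genes above the floor. It was present in 5 of the 32 replication genes (15.6%) and 2 of the 35 mitosis genes (5.71%). Over all 27305 promoters of the table the shares were 7.95% for E2F, 13.6% for CHR, 33.0% for CCAAT and 6.49% for the E-box. A match is a string of letters and was not tested as a binding site.

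Cyclins, kinases and E2F factors of the G1/S transition fell in 20 of 26 cases, and 0 rose. CDC25A, the phosphatase that activates CDK2, read 17.5 and 35.4 with 10 µM and 608 and 522 with vehicle, a fall of at least 5.63-fold. E2F8 and E2F7, repressors of the E2F family, fell at least 7.77-fold and 7.74-fold. The activator E2F1 read 147 and 197 with 10 µM and 637 and 542 with vehicle, 3.46-fold lower. CCNA2, cyclin A2, read 501 and 478 with 10 µM and 2397 and 2558 with vehicle, 5.06-fold lower (limma adjusted p = 6.05e-08). None of these overlapped between the groups, as was so for 80.1% of all genes above the floor. RB1 and E2F4 had log2 differences of -0.23 and -0.02, and neither passed.

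Of 68 mitosis genes 62 fell and 0 rose, with a median of -1.38. UBE2C, the ubiquitin-conjugating enzyme of the anaphase-promoting complex, read 839 and 854 with 10 µM and 5469.6 and 5081 with vehicle, 6.23-fold lower (adjusted p = 4.81e-09). ESPL1 read 189 and 178 with 10 µM and 1019.6 and 975 with vehicle. NCAPH, a condensin subunit, and SPC25, of the kinetochore, fell by 2.43 and 2.42 on the log2 scale. CENPF, KIF18A, UBE2S, SMC4, KIF20B and SGO1 did not pass on the probe sets used, though another probe set of CENPF and of SGO1 fell (-1.01 and -1.20). These are bulk RNA profiles, so fewer cells in a phase of the cycle and less RNA per cell cannot be told apart.

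Homologous recombination and repair genes fell in 24 of 31 cases and rose in 2. EXO1, the nuclease that resects breaks, read 64.0 and 83.5 with 10 µM and 699 and 742 with vehicle, at least 7.2-fold lower. BRCA1 read 191 and 111 with 10 µM and 1119 and 1347 with vehicle, 8.43-fold lower (adjusted p = 1.31e-06), and the checkpoint kinase CHEK1 and the helicase BRIP1 fell by 2.77 and 2.54. The 2 that rose were ATM (0.51) and NBN (0.55), which sense breaks, and their count was 0 without the second 10 µM array and 1 without the first 10 µM or the first vehicle array. Among Polycomb and DNA methylation genes 8 of 19 fell (42.1%) and 2 rose (10.5%), against 21.9% and 20.2% of all genes. EZH2, the methyltransferase of Polycomb complex 2, read 370.3 and 410.3 with 10 µM and 1259 and 1171 with vehicle and fell 3.12-fold, while its paralog EZH1 rose by 0.68. The count that rose was 1 without the second 10 µM or the second vehicle array. DNMT1, the partner of UHRF1, read 1361 and 1544 with 10 µM and 2771 and 2647 with vehicle, 1.87-fold lower.

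Biosynthetic lists also moved down, by smaller amounts. Enzymes of nucleotide and one-carbon synthesis fell in 24 of 30 cases, with a median of -0.77. Beside RRM2 these were PFAS, of purine synthesis (-2.04), CTPS2, of CTP synthesis (-1.60), and DTYMK, of thymidylate (-1.37). Nucleolar factors of ribosome assembly fell in 31 of 43 cases, with a median of -0.77, led by TSR1 and NOP16 (-1.54 and -1.50). No member of either list rose. Mitochondrial ribosomal proteins fell in 23 of 38 cases (median -0.43), or 15 without the first 10 µM array. By contrast, 0 of 27 cytosolic ribosomal proteins passed in either direction, and their median was -0.02. Median centring made this 1 lower.

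The largest rise against the floor was of JUN, a subunit of the AP-1 transcription factor. It read 1612 and 1616 with 10 µM and 217 and 203 with vehicle, 7.7-fold higher (log2 change 2.94 ± 0.14, SE, limma adjusted p = 2.81e-08), and its other 3 probe sets rose by 1.47 to 1.59. Of the 21 AP-1 and immediate early genes above the floor 4 rose (19%) and 9 fell (42.9%), against 20.2% and 21.9% of all genes. The share that rose was thus near that of all genes, and fewer fell without the second 10 µM array. KLF6, a zinc finger factor, read 1368 and 1309.8 with 10 µM and 492 and 489 with vehicle, 2.73-fold higher. KLF4, a related factor, read 248 and 262 with 10 µM and 1562 and 1389.7 with vehicle, 5.79-fold lower. FOS, the classical partner of JUN, stayed under the floor at 3.59 and 7.08 with 10 µM and 5.49 and 11.7 with vehicle.

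Histone genes of the replication-dependent clusters made up 3 of the 15 largest rises, H3C2, H4C5 and H2AC8. H3C2 read 636 and 666 with 10 µM and 71.8 and 60.3 with vehicle, at least 6.51-fold higher. H4C5 read 1185 and 1230.3 with 10 µM and 203 and 174 with vehicle, 6.44-fold higher. H2AC8 read 4451 and 4178 with 10 µM and 929.6 and 879 with vehicle, 4.77-fold higher (adjusted p = 2.44e-08). In the whole list 16 of 25 genes above the floor rose and 0 fell, with a median of 1.27, while the replication genes above fell. Most mRNAs of these clusters end without a poly(A) tail, the labels describe polyadenylated RNA, and near-identical copies can share probes, so single members are uncertain. The part of polyadenylation in these values was not tested.

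Among the other large rises, several encode proteins of the cytoskeleton and of synapses. TUBA1A, an alpha-tubulin, read 7288 and 6306 with 10 µM and 1154 and 1134 with vehicle, 5.93-fold higher (adjusted p = 2.36e-08). MAP2, which binds microtubules in dendrites, read 1322 and 1356 with 10 µM and 227 and 269 with vehicle, 5.42-fold higher. PCLO, a scaffold of the presynaptic active zone, read 639 and 652 with 10 µM and 141 and 109.7 with vehicle. Each of these had 10 µM arrays above both vehicle arrays, which the rule for naming the largest rises required. LZTS3, a postsynaptic protein, rose 5.38-fold and SERPINI1, the protease inhibitor neuroserpin, 4.36-fold. Of the 15 synaptic and neurosecretory genes above the floor 4 rose and 2 fell, with 20.2% and 21.9% over all genes. SYT4, a synaptotagmin, fell at least 6.22-fold, at 63.1 and 67.9 with 10 µM and 721 and 537 with vehicle. CHGA and SYP, the usual markers of neuroendocrine cells, were under the floor in both groups. SYP came near it, with means of 93.4 with 10 µM and 17.4 with vehicle (log2 change 2.43, limma adjusted p = 0.0203).

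The remaining large rises were of SLC2A13, a myo-inositol transporter (at least 5.14-fold), RCBTB2 (4.94-fold), ABCA5, a lipid transporter (4.69-fold), ZSWIM6 (4.4-fold) and IGFBP3. IGFBP3, which binds insulin-like growth factors, read 783 and 809 with 10 µM and 154 and 130.3 with vehicle, 5.62-fold higher. Its standard error of 0.68 on the log2 scale was the widest of the 15 (adjusted p = 0.0207), and the call was lost without the second vehicle array (log2 change 2.37, adjusted p = 0.103, with 1.02e-05 to 0.103 over its alternatives). Large falls outside the cell cycle were those of TFPI, an inhibitor of coagulation, at 170.2 and 161 with 10 µM and 2519.8 and 2909 with vehicle, and of ADAMTS1, a matrix protease, at 119.8 and 107 with 10 µM and 1662 and 1935 with vehicle. CAMK2N1, an inhibitor of the kinase CaMKII, read 745 and 722 with 10 µM and 8921 and 9184 with vehicle, 12.3-fold lower, with the smallest adjusted p of these genes (4.48e-10). The monocarboxylate transporter SLC16A14, the kisspeptin receptor KISS1R and DDC, the decarboxylase that makes dopamine, fell 14.1-fold, 9.45-fold and 9.45-fold.

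Inhibitors of cyclin-dependent kinases and targets of p53 rose in 9 of 24 cases (37.5%) and fell in 2 (8.33%), against 20.2% and 21.9% of all genes. CDKN2B, the inhibitor p15 of CDK4 and CDK6, read 218 and 192 with 10 µM and 18.2 and 26.6 with vehicle, at least 2.05-fold higher (adjusted p = 8.66e-08). TP53INP1, a p53 target, read 9906 and 9123 with 10 µM and 4229 and 4097 with vehicle, 2.28-fold higher. CDKN1A, the inhibitor p21, read 2686 and 2562 with 10 µM and 2428 and 2454 with vehicle, a log2 difference of 0.10 ± 0.11 that did not pass (adjusted p = 0.648). DDB2, a p53 target in nucleotide excision repair, moved the other way, at 409 and 584 with 10 µM and 1583 and 1479 with vehicle.

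Lysosome and autophagy genes rose in 16 of 31 cases and fell in 3, with a median of 0.41, against 20.2% and 21.9% of all genes. NEU1, the lysosomal sialidase, read 2120.5 and 2287 with 10 µM and 921 and 889 with vehicle, 2.43-fold higher. MAP1LC3B, which coats autophagosomes, read 4434 and 4576 with 10 µM and 1904 and 1861 with vehicle, 2.39-fold higher. ATG2A and the initiating kinase ULK1 rose 2.34-fold and 2.15-fold, with no overlap of groups, as in 80.1% of all genes above the floor. Of the 16, 4 exceeded 2-fold. The count that rose was 9 with median centring, and the count that fell was 1 without the second 10 µM array. Of arrestin-domain and metallothionein genes 9 of 15 rose and 3 fell. ARRDC3 read 1943 and 1942 with 10 µM and 667 and 581 with vehicle, 3.12-fold higher, and its relative TXNIP, the inhibitor of thioredoxin, read 18835 and 17436 with 10 µM and 8577 and 8814 with vehicle, 2.08-fold higher. ARRDC2 read 80.6 and 5.77 with 10 µM and 159 and 185 with vehicle, a fall that was lost with the labelled line fitted alone (adjusted p = 0.278, with 2.88e-06 to 0.278 over its alternatives).

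**Figure D4:**
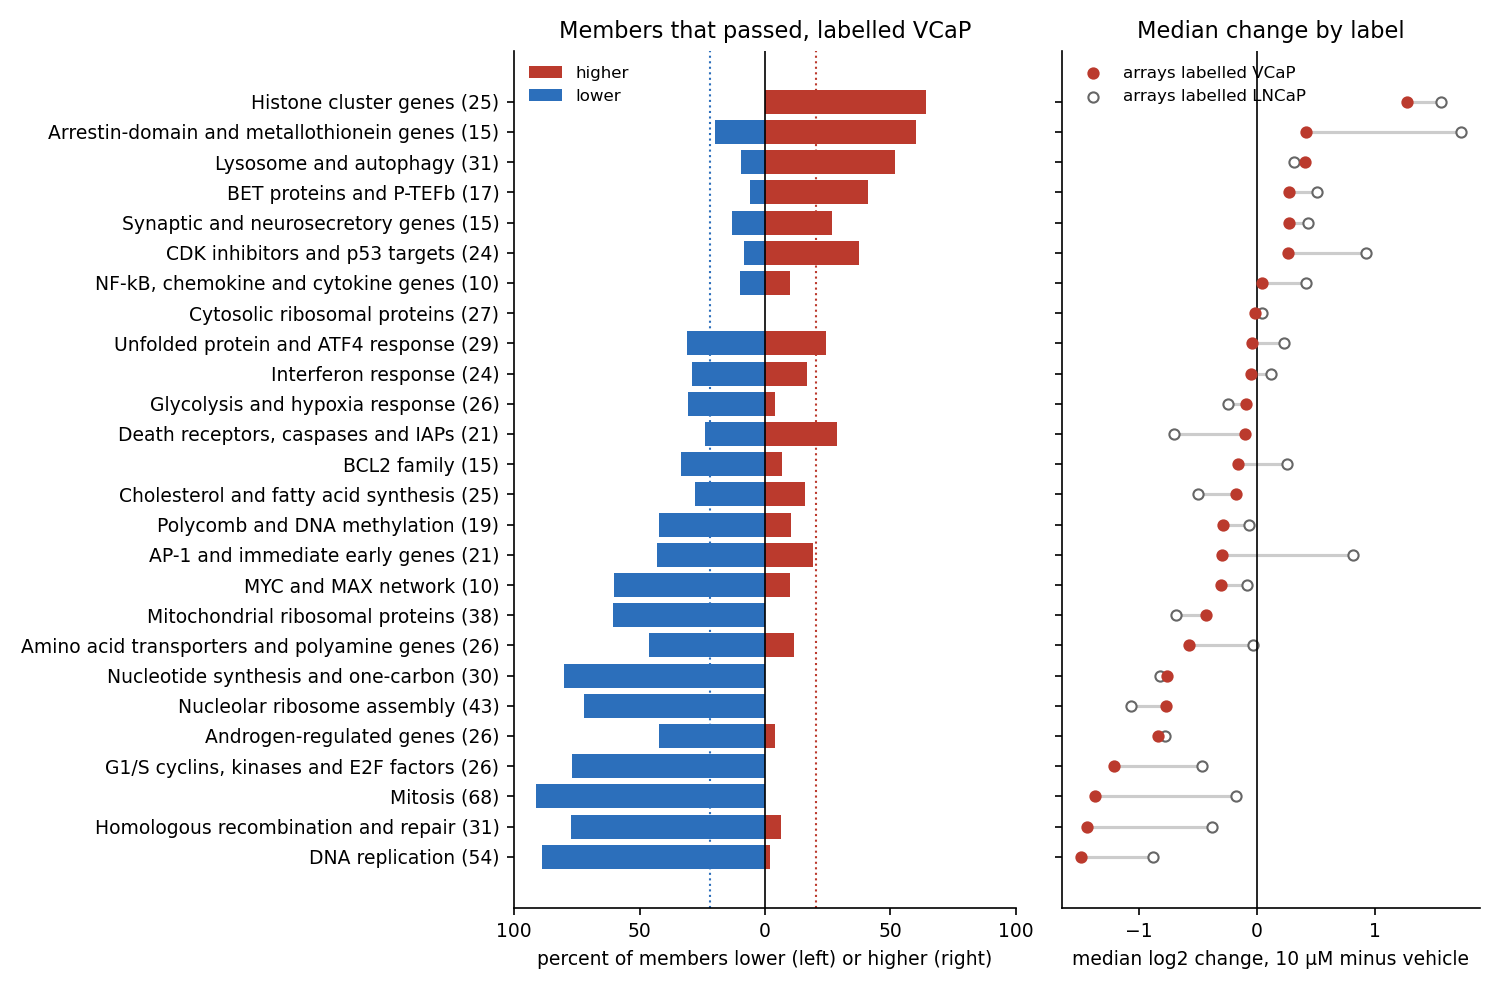
Left, the percent of each list's genes above the floor (number in parentheses) that passed limma at an adjusted p under 0.1 and were higher (red) or lower (blue) with 10 µM than with vehicle on the arrays labelled VCaP; dotted lines mark all genes, 20.2% and 21.9%. Right, the median log2 change of each list on the arrays labelled VCaP (filled) and labelled LNCaP (open), where the mitosis list has -1.38 and -0.18.

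Androgen-regulated genes fell in 11 of 26 cases and rose in 1, FOXA1, a pioneer factor of luminal prostate cells (0.65), which did not pass with the labelled line alone (adjusted p = 0.111, with 0.00332 to 0.111 over its alternatives). KLK2, a kallikrein secreted by luminal cells, read 844 and 681 with 10 µM and 10093 and 10603 with vehicle, 13.6-fold lower (log2 change -3.77 ± 0.99, SE, limma adjusted p = 0.0167). Its other 2 probe sets above the floor fell by 5.16 and 5.56. CREB3L4, a membrane-bound transcription factor, read 599.6 and 565 with 10 µM and 4242 and 4032 with vehicle, 7.11-fold lower (adjusted p = 4.14e-09). UGT2B17, which inactivates androgens, read 3.04 and 6.69 with 10 µM and 189 and 243 with vehicle, at least 2.14-fold lower. KLK3, prostate-specific antigen, read 5397 and 4199 with 10 µM and 20204 and 20567 with vehicle, 4.28-fold lower. The groups of KLK3 did not overlap, as in 80.1% of all genes above the floor. Its adjusted p of 0.0942 was close to the threshold, and the call was lost with any 1 of the 4 arrays left out (adjusted p = 0.194 to 0.294) and with the replicate number as a block (0.172), within 0.000185 to 0.294 over all its alternatives. Its 3 probe sets had log2 changes of -2.10, -1.36 and -0.18. TMPRSS2 read 5242 and 4219.7 with 10 µM and 9868 and 9941 with vehicle, 2.11-fold lower without passing (adjusted p = 0.201), and passed with the labelled line alone (0.0414, with 0.0189 to 0.48 over its alternatives). FKBP5, NDRG1, FOLH1 and SLC45A3 had log2 differences of -0.04, -0.12, -0.05 and 0.22 and did not pass.

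In the BCL2 family 5 of 15 genes fell (33.3%) and 1 rose (6.67%), though fewer fell with any 1 of the 4 arrays left out. BOK, a pore-forming member, read 397 and 416 with 10 µM and 1057 and 1026 with vehicle, 2.56-fold lower. BID, which links death receptors to mitochondria, read 433 and 428 with 10 µM and 1153 and 1042 with vehicle, 2.55-fold lower (adjusted p = 8.54e-05). BAX read 526 and 466 with 10 µM and 899.7 and 1020.5 with vehicle, and its fall (adjusted p = 0.0464) did not pass with any 1 array left out (0.112 to 0.199, with 0.0284 to 0.199 over its alternatives). The member that rose was MCL1, an inhibitor of apoptosis (0.40), and this was lost without the first 10 µM or the first vehicle array and with median centring. The probe set used for BCL2 was under the floor in both groups, and another had means of 104 with 10 µM and 88.2 with vehicle without passing. Of death receptors, caspases and inhibitors of apoptosis 6 of 21 rose (28.6%) and 5 fell (23.8%), close to the 20.2% and 21.9% of all genes above the floor. FAS, a death receptor, read 94.9 and 105 with 10 µM and 431 and 374 with vehicle, at least 4.01-fold lower. TNFRSF10A, the receptor for TRAIL, fell by 1.45 and MLKL, the effector of necroptosis, at least 2.04-fold, at 45.6 and 45.5 with 10 µM and 209.7 and 198 with vehicle. CASP9, the initiator caspase of the mitochondrial route, read 935 and 968 with 10 µM and 455 and 465 with vehicle, 2.07-fold higher. FAS, TNFRSF10A, MLKL and CASP9 are single members of this list. Their groups did not overlap, as was so for 80.1% of all genes above the floor.

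Without a minimum fold, the stress and interferon lists had shares near the 20.2% higher and 21.9% lower of all genes above the floor. Single members moved. DDIT3 (CHOP), a factor induced by ATF4, read 1488 and 1468 with 10 µM and 325 and 524 with vehicle, 3.58-fold higher, and ATF3 read 3981 and 4117 with 10 µM and 1646 and 1548 with vehicle, 2.54-fold higher. TRIB3 and CHAC1, other targets of ATF4, moved down, TRIB3 at 1401 and 1434 with 10 µM and 3480.0 and 3533 with vehicle and CHAC1 by -1.09 on the log2 scale. Over the unfolded protein and ATF4 list 7 of 29 rose (24.1%) and 9 fell (31.0%). With the second 10 µM or the first vehicle array left out 5 fell, and with median centring 3 rose. In the interferon list 4 of 24 rose (16.7%) and 7 fell (29.2%). With a fold over 2 required, 2 of the 24 were higher and 6 lower, against 4.97% and 8.43% of all genes above the floor. PARP9 and ISG20 fell by 1.84 and 1.40 on the log2 scale. IFIH1, a sensor of double-stranded RNA, read 22.6 and 14.9 with 10 µM and 207 and 196 with vehicle, at least 2.01-fold lower, and IRF7 read 1128 and 1134 with 10 µM and 560.4 and 446 with vehicle, 2.26-fold higher. Of NF-kB and cytokine genes only 10 of 30 on the array were above the floor, and 1 rose (REL) and 1 fell (LIF). The fall was lost with any 1 of the 4 arrays left out, and the rise without the first vehicle array and with the labelled line fitted alone (adjusted p = 0.122 and 0.229).

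Transporters and metabolic enzymes had single large falls. Amino acid transporters and polyamine genes fell in 12 of 26 cases and rose in 3. SLC7A2, a carrier of cationic amino acids, read 19.8 and 102 with 10 µM and 465 and 476 with vehicle, at least 4.71-fold lower, and SLC1A5, which carries glutamine, read 511 and 346 with 10 µM and 1352 and 1241 with vehicle. PFKFB3, which makes the activator of phosphofructokinase, read 356 and 482 with 10 µM and 2005 and 2044 with vehicle, 4.89-fold lower, and hexokinase HK2 fell 2.19-fold. Enzymes of the glycolytic chain such as GAPDH, LDHA and PGK1 had log2 differences of 0.09, 0.01 and -0.06 and did not pass. In all 8 of 26 glycolysis and hypoxia genes fell (30.8%) and 1 rose (3.85%). ELOVL6, which lengthens fatty acids, read 274 and 305 with 10 µM and 1590.4 and 1549.8 with vehicle, 5.43-fold lower, while the list of cholesterol and fatty acid synthesis had 7 of 25 lower (28.0%) and 4 higher (16.0%), near the 21.9% and 20.2% of all genes.

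The dose was examined by setting 10 µM directly against 0.5 µM, since both doses share the vehicle arrays. Over all genes above the floor 4.3% were higher and 5.64% lower with 10 µM than with 0.5 µM (limma, adjusted p under 0.1). JUN, HEXIM1 and H3C2 rose further with dose. JUN read 217 and 203 with vehicle, 541 and 508 with 0.5 µM and 1612 and 1616 with 10 µM (10 µM minus 0.5 µM 1.62 ± 0.14 on the log2 scale, adjusted p = 8.5e-05). MYC read 6063 and 5912 with vehicle, 2479.8 and 2520.5 with 0.5 µM and 999 and 961 with 10 µM, a further fall of 1.35 (adjusted p = 1.33e-05). UHRF1 read 2892 and 2709 with vehicle, 327 and 392 with 0.5 µM and 58.9 and 44.1 with 10 µM. These genes ran in 1 direction through all 3 levels. Of replication genes 12 were lower and 1 higher with 10 µM than with 0.5 µM. Mitosis genes ran the other way, with 22 higher and 2 lower, and medians against vehicle of -1.63 with 0.5 µM and -1.38 with 10 µM. KIF23, a kinesin of cytokinesis picked after its values were seen, read 639 and 695 with vehicle, 103 and 104 with 0.5 µM and 231 and 150.1 with 10 µM (0.85, adjusted p = 0.0131). CCNA2 read 2397 and 2558 with vehicle, 447 and 436 with 0.5 µM and 501 and 478 with 10 µM, a difference between the doses of 0.15 ± 0.13 (SE) that did not pass (adjusted p = 0.716). The signals of CCNA2 were close at the 2 doses, and those of KIF23 were higher at the higher dose.

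CD274, the ligand PD-L1 of the checkpoint receptor PD-1, read 737 and 809 with vehicle, 1106 and 1095 with 0.5 µM and 171 and 174 with 10 µM. The signals of the 2 doses thus lay on opposite sides of vehicle, though of 985 genes called lower with 10 µM 0 were called higher with 0.5 µM. Its 2 probe sets had log2 changes of -2.16 and -1.10 with 10 µM against vehicle. The difference of 10 µM from 0.5 µM was -2.67 ± 0.18 (adjusted p = 6.83e-06). The other 4 of the 5 largest falls between the doses by fitted value were of COLCA1, P2RX5, a receptor for ATP, ADCY6-DT and UHRF1, whose probe sets were under the floor with 10 µM. Another probe set of COLCA1 had means of 2720 with 10 µM and 5057 with vehicle. With group means raised to 100, a ranking added after the data were seen, CD274 came first and SLC16A14 (-2.39) and LINC00623 (-2.24) came next, and UHRF1 had -1.84. P2RX5 read 766 and 834 with vehicle, 424 and 455 with 0.5 µM and 92.8 and 30.2 with 10 µM. By fitted value the largest rises between the doses were of NLRP8, LOC154761, PHKG1, TSPAN5 and H3C2, and with means raised to 100 those of H3C2 (2.08), DNAJC6 (1.74) and JUN (1.62). TSPAN5, a tetraspanin, read 97.1 and 58.2 with vehicle, 53.9 and 39.4 with 0.5 µM and 222 and 193 with 10 µM, and LOC154761 and PHKG1 did not pass against vehicle. When the labelled line was fitted alone, with 3 residual degrees of freedom, limma called 0 probe sets between the doses (4647 had an unadjusted p under 0.05). With all lines in the model it called 166 higher (0.304%) and 252 lower (0.461%).

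**Figure D5:**
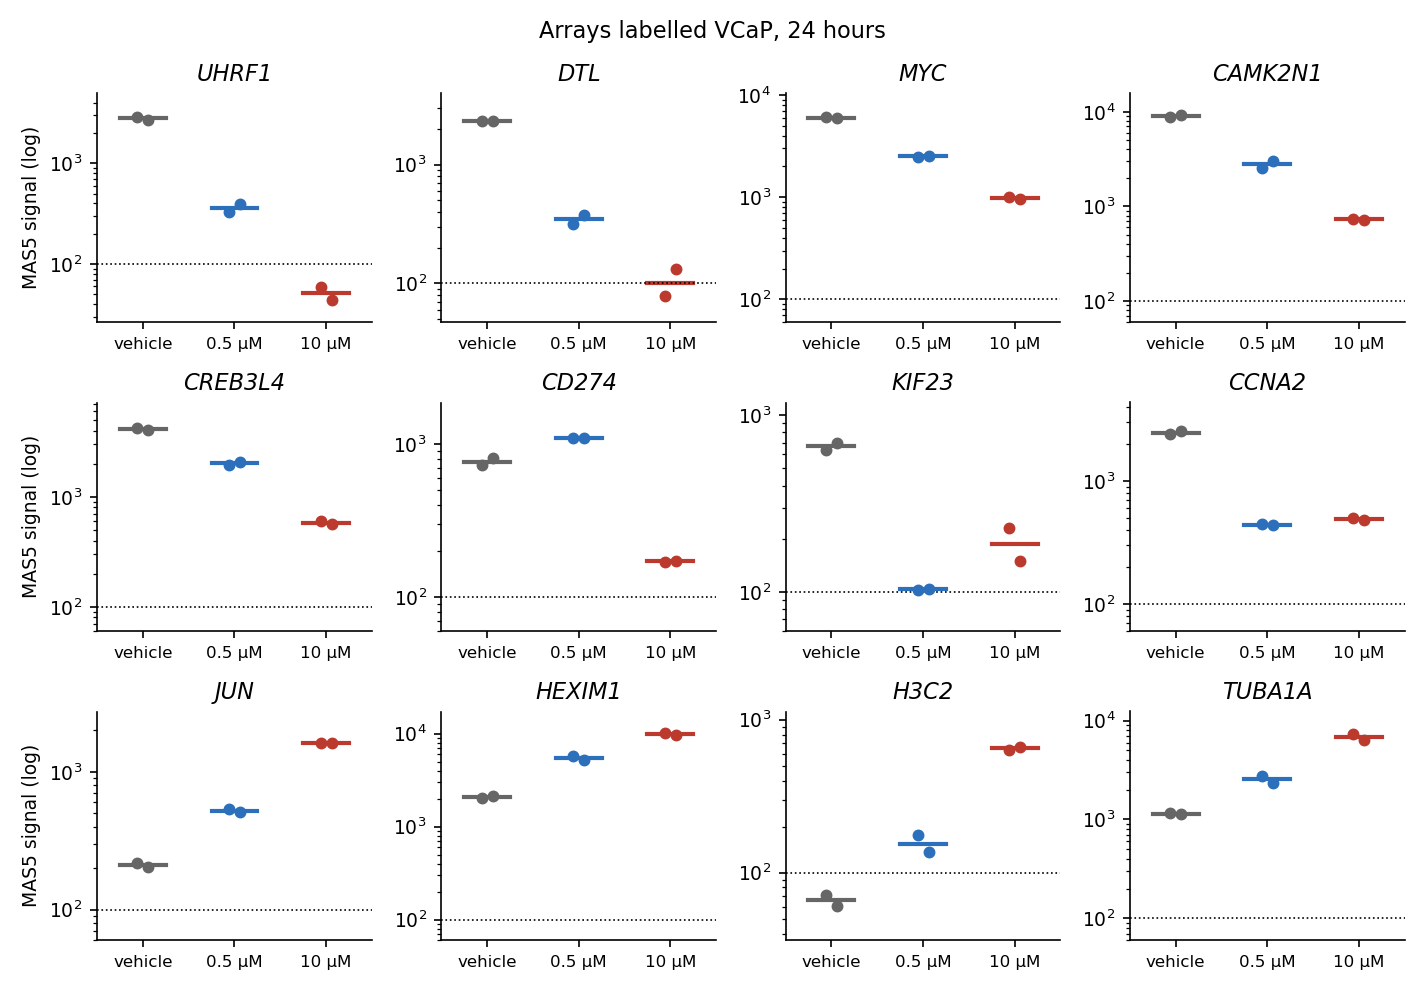
MAS5 signal (log axis) of 12 genes on each array (points) and the geometric mean of each group (lines) with vehicle, 0.5 µM and 10 µM I-BET762, 24 hours, arrays labelled VCaP; the dotted line is the floor of 100. JUN runs upward and UHRF1 downward through all 3 levels, CCNA2 is level between the doses, and CD274 reads 1106 and 1095 with 0.5 µM but 171 and 174 with 10 µM.

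The change with 10 µM on the arrays labelled VCaP was tested against that on the arrays labelled LNCaP. Of genes above the floor 9.83% had a higher change on the arrays labelled VCaP and 12.1% a lower one, and with a ratio of folds over 2 these were 4.13% and 6.02%. The mitosis list had a median change of -1.38 on the arrays labelled VCaP and -0.18 on those labelled LNCaP, and 58 of its 68 members had the lower change on the arrays labelled VCaP. CCNA2 had log2 changes of -2.34 on the arrays labelled VCaP and -0.37 on those labelled LNCaP (difference -1.97, adjusted p = 3.23e-05). EZH2 had changes of -1.64 on the arrays labelled VCaP and 0.02 on those labelled LNCaP (difference -1.66, adjusted p = 9.32e-05). The replication list had medians of -1.50 on the arrays labelled VCaP and -0.88 on those labelled LNCaP. Nucleolar factors ran the other way, with -0.77 on the arrays labelled VCaP and -1.07 on those labelled LNCaP, and 13 of 43 had the higher change on the arrays labelled VCaP. AP-1 and immediate early genes had -0.30 on the arrays labelled VCaP and 0.81 on those labelled LNCaP.

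Some genes had changes of opposite sign on the arrays of the 2 labels, and of those in this paragraph BIK and NEFL passed in each label. BIK, a pro-apoptotic member of the BCL2 family, fell by 0.90 on the arrays labelled VCaP and rose by 1.04 on those labelled LNCaP (difference -1.93, adjusted p = 9.57e-05). NEFL, a neurofilament, fell by 0.98 on the arrays labelled VCaP and rose by 1.28 on those labelled LNCaP (difference -2.26, adjusted p = 0.000185). IGFBP3 rose by 2.49 on the arrays labelled VCaP and had a log2 difference of -1.58 on those labelled LNCaP that did not pass (adjusted p = 0.119), and the 2 changes differed by 4.07 (adjusted p = 0.0192). ADAMTS1 fell by 3.98 on the arrays labelled VCaP and had a log2 difference of 1.35 on those labelled LNCaP that did not pass (adjusted p = 0.173). CD274 fell by 2.16 on the arrays labelled VCaP and was under the floor in both groups labelled LNCaP. HEXIM1 and BRD2 had changes of 2.26 and 1.78 on the arrays labelled VCaP and 2.51 and 1.54 on those labelled LNCaP, and the differences of -0.26 and 0.25 did not pass (adjusted p = 0.463 and 0.404).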

How the data were processed

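The values are those of the deposited series matrix, a linear intensity that the authors computed with Micro Array Suite 5.0 (MAS5) and scaled to a target of 500. No genome build enters them. After 62 of 54675 probe sets, the controls, were set aside, a linear model of 12 groups with 2 arrays each was fitted to log2 signals (limma 3.58.1, R 4.3.3, empirical Bayes without a trend, residual df 12, prior df 1.29). Benjamini-Hochberg adjustment ran over 54613 probe sets, and the fit was tested on simulated data. A call needed an adjusted p under 0.1, a fold over 2 and a geometric group mean of at least 100 in either group, and a fold against a group under 100 was computed against 100. List members passed on adjusted p and floor alone. With 2 replicates per group, standard errors and p-values rest on the spread between replicate cultures pooled over all 12 groups. They do not measure the spread of the arrays labelled VCaP alone.

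The annotation gave 41091 probe sets 1 symbol, 1801 several and 11721 none, and 41037 matched RefSeq. A gene took its probe set of highest mean log2 signal, avoiding those ending in _x_at where another existed. Some genes are not reported here. The genes, lists and tests were chosen with earlier results of these data known. Named are the 15 largest rises and the 15 largest falls with groups raised to 100, among called genes whose groups did not overlap. Also named are up to 4 members of each of 34 lists, genes of known interest, and 5 each way by fitted value for the dose and label contrasts. Genes named only as not passing, or to complete a small count, were added after their values were seen. Promoters are from RefSeq (GRCh38.p14). Alternatives changed the floor (none or 200), the scaling (quantile or median), the variance model (an intensity trend), the arrays fitted (the labelled line alone, or each array left out), the replicate block, the threshold (0.05), the set adjusted over, the pseudocount (32) and the probe set and fold rules of the lists.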

Additional observations from a re-analysis of the deposited data

Results flagged for a closer look

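Of 145 named genes tested, 54 were listed because their log2 change with 10 µM against vehicle differed between the arrays labelled VCaP and those labelled LNCaP (limma interaction contrast, adjusted p under 0.1, ratio of folds over 2). Values are the change on the arrays labelled VCaP minus that on the arrays labelled LNCaP, so a negative one means a lower change on the arrays labelled VCaP. The share of all genes above the floor that met this rule was 4.13% higher and 6.02% lower. Many of the named genes were chosen for large changes on the arrays labelled VCaP, whose values also enter this difference. Their count is thus a description and cannot be set against that share. Genes of the cell cycle, replication, repair and chromatin made up the largest group, which depends on the lists that supplied the names. The difference was -1.59 for DTL, -1.18 for CDC6, -1.09 for MCM5, -1.92 for ORC1, -1.0 for E2F8, -2.91 for E2F7, -1.97 for CCNA2, -2.82 for RRM2, -1.99 for UBE2C, -1.48 for ESPL1, -2.92 for NCAPH, -1.28 for SPC25, -1.43 for EXO1, -1.35 for BRCA1, -1.53 for BRIP1, -1.66 for EZH2 and -2.18 for UHRF1. Genes of stress, death and metabolism differed in both directions, with 2.02 for DDIT3, 1.13 for FAS, 1.13 for ELOVL6, -2.39 for ATF3, -1.39 for CHAC1, -1.93 for BIK, -2.64 for PFKFB3, -1.42 for PFKFB4, -1.05 for EGLN3, -1.02 for TXNIP and -3.54 for ARRDC2. Signalling, cytokine and immune genes differed by -2.28 for IFIH1, -3.55 for LIF, -2.31 for KLF4, -3.39 for CD274, 4.07 for IGFBP3, -5.33 for ADAMTS1 and -1.91 for CAMK2N1. Neural and transport genes and others had differences of -2.87 for SYT4, -2.26 for NEFL, 2.36 for GAP43, -1.0 for SERPINI1, 3.47 for DDC, -1.76 for SLC16A14, 1.99 for H3C2, -1.03 for BRD3 and -2.89 for LOC154761. In 25 of the 54 genes at least 1 of the 4 groups was under the floor, so that the fitted difference rests in part on signals near background. With group means raised to 100, an alternative added after the data were seen, 11 of the 54 differences were under 1 on the log2 scale, and 1 turned its sign. They became -0.13 for ORC1, -0.30 for E2F8, 0.36 for DDC, 0.17 for IFIH1, -0.46 for LIF, 0.27 for GAP43, -0.52 for LOC154761, -1.21 for UHRF1, -1.32 for ARRDC2 and -2.16 for CD274. The 10 genes with the largest fitted differences were named for that, so that their differences are a description. They were -7.43 for MIR7-3HG, -7.28 for FOS, -6.77 for RASD1, -6.07 for ABCB11, -5.87 for WWTR1, 9.32 for ANXA10, 7.23 for RERG, 6.56 for STAP1, 6.34 for CCL2 and 6.12 for SSTR5-AS1. Of these, MIR7-3HG, FOS, ANXA10, RERG, STAP1, CCL2 and SSTR5-AS1 were under the floor with 10 µM and with vehicle on the arrays labelled VCaP, and their differences came from the arrays labelled LNCaP. Raised to 100, the differences of the 10 were -5.24 for MIR7-3HG, -3.29 for FOS, -6.37 for RASD1, -2.14 for ABCB11, -0.33 for WWTR1, 2.68 for ANXA10, 0.45 for RERG, 0.14 for STAP1, 2.47 for CCL2 and 4.46 for SSTR5-AS1. RASD1 and ABCB11 fell on the arrays labelled VCaP. RASD1 had means of 75.8 with 10 µM and 605 with vehicle on these. It had means of 3038 with 10 µM and 222 with vehicle on the arrays labelled LNCaP, the opposite direction. On the arrays labelled VCaP, ABCB11 read 8.04 and 10.2 with 10 µM and 444 and 437 with vehicle. WWTR1 had means of 2.15 with 10 µM and 102 with vehicle there, so its vehicle level was at the floor, and the call was lost without the first vehicle array.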

How the results depend on the processing

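No named gene that passed changed sign under the alternatives refitted across all probe sets. Leaving out each array in turn gave 1368 to 1557 probe sets higher and 1589 to 1682 lower with 10 µM than with vehicle, 326 to 386 called between 10 µM and 0.5 µM, and 2350 to 2600 whose change differed between the labels. Without a floor 2437 were higher and 2353 lower than vehicle, against 1522 and 1798 with it, so that higher calls outnumbered lower ones, and 813 were called between the doses, against 418. Between the doses 166 were higher and 252 lower, but 191 and 179 without the second 0.5 µM array, and with the labelled line alone 0 were called between the doses. All other alternatives left these counts within 1.5 times. Median centring and quantile normalization shifted the median change by -0.13 and -0.07 and gave 32.2% and 41.4% of calls higher, against 45.8%. The replicate numbers did not pair the arrays (correlation of deviations -0.02 between 10 µM and vehicle). With the replicate block the counts were 1505 higher, 1775 lower, 364 between the doses and 2527 between the labels, and 3 of 145 named genes no longer passed, KLK3, TMEFF2 and EPCAM. Over the named genes and their alternatives 1243 of the outcomes stayed on their side of the threshold, 58 no longer passed and 4 newly passed. With a fold over 2 required, 32 of 52 list counts moved by over 1.5 times, since many members changed by less. Signals near the floor limit the folds of genes such as UHRF1 and ORC1 to lower bounds, and 2 arrays per group limit the precision.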
